A study of Mus musculus with 24 samples.

Results

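The 45 genes described here code for ribosome biogenesis factors, proteins that transcribe, fold, cut, modify and assemble ribosomal RNA. They were found by their symbols in a table of read counts from mouse liver. The list of symbols was drawn up with earlier results of these data known, so the counts below describe the list and are no independent test of it. All 45 were among the 24421 genes of the table, and all 45 were among the 13833 genes that passed the filter on low counts. Polyadenylated RNA came from the medial liver lobe of C57BL/6 mice. Every mouse had received an injection, and tissue was taken 1 h or 4 h later. The 2 vehicle groups were given 0.1% ethanol and the 2 MitoCDNB groups 5 mg/kg of MitoCDNB, with 6 mice and 6 libraries in each of the 4 groups. MitoCDNB is chlorodinitrobenzene tied to a lipophilic cation that carries it into mitochondria, and it was designed to act there on glutathione and thioredoxin. There was no uninjected group, so the 1 h and 4 h vehicle mice share the injection, and the labels state neither the sex nor the age of the mice.

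Ribosomes are built in the nucleolus. RNA polymerase I transcribes 1 long precursor, which small nucleolar RNA-protein particles (snoRNPs) modify and the small-subunit processome folds and cuts. The precursors of the small (40S) and large (60S) subunits then part, lose their assembly factors in turn and leave the nucleus. Many of the genes for these factors are known targets of the transcription factor MYC and respond to feeding, growth signals and the mTORC1 kinase, and in the liver their RNA is known to follow the daily feeding rhythm.

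Total counts ran from 25132737 to 37231025 per library. Levels are counts-per-million values (CPM), with library sizes adjusted by edgeR's trimmed-mean scaling. The summed level of 10 hepatocyte markers lay between 56310 and 79980 CPM in all 24 libraries, and 10 of 10 of these markers passed the filter. Library numbers 13 to 24 were all of 1 h and numbers 1 to 12 all of 4 h. Time after injection, library number and the hour of day, which the labels do not state, therefore cannot be told apart. A list of brain markers (9 of 15 tested) summed to 23.5 to 29.0 CPM in the 1 h libraries with replicate numbers 4 to 6 and to 18.3 to 21.7 CPM in those numbered 1 to 3, and at 4 h the sum was 13.5 to 23.8 CPM. Vehicle replicate 4 of 4 h held 494 CPM of Kupffer cell and macrophage markers, against 146 to 268 CPM in the other 23 libraries.

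The data showed 2 patterns in these genes. In the comparison of treatments, Rcl1 was the 1 gene called: it was 2.36-fold higher with MitoCDNB at 1 h and back at the vehicle level at 4 h. In the comparison of times, a broad group of the genes was higher at 4 h than at 1 h, in vehicle mice as well as in MitoCDNB mice, by less than 2-fold in every case in vehicle mice and in every case but Rrp9 and Rrp12 in MitoCDNB mice.

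The genes differed widely in abundance. Per kilobase of the principal transcript, vehicle livers at 1 h held from 0.690 ± 0.179 CPM of Rrp1b to 47.7 ± 5.01 CPM of Rcl1 (mean ± SD, n = 6). Npm1, which codes for the abundant nucleolar chaperone nucleophosmin, came next after Rcl1 (31.8 ± 2.05 CPM per kb), followed by Rrp1, a nucleolar protein of 60S maturation (23.8 ± 0.881). Per kilobase of coding sequence Rcl1 and Npm1 again led (76.8 ± 8.08 and 59.3 ± 3.82 CPM), followed by nucleolin, Ncl (43.0 ± 1.51), and the 60S factor Nop16 (32.9 ± 1.88). Rrp12 (1.41 ± 0.295) and Utp20 (1.45 ± 0.264) were lowest on that scale and did not differ beyond their spread. Reads of Npm1 may be shared with near-identical copies elsewhere in the genome, and the labels do not state how such reads were counted.

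**Figure D1:**
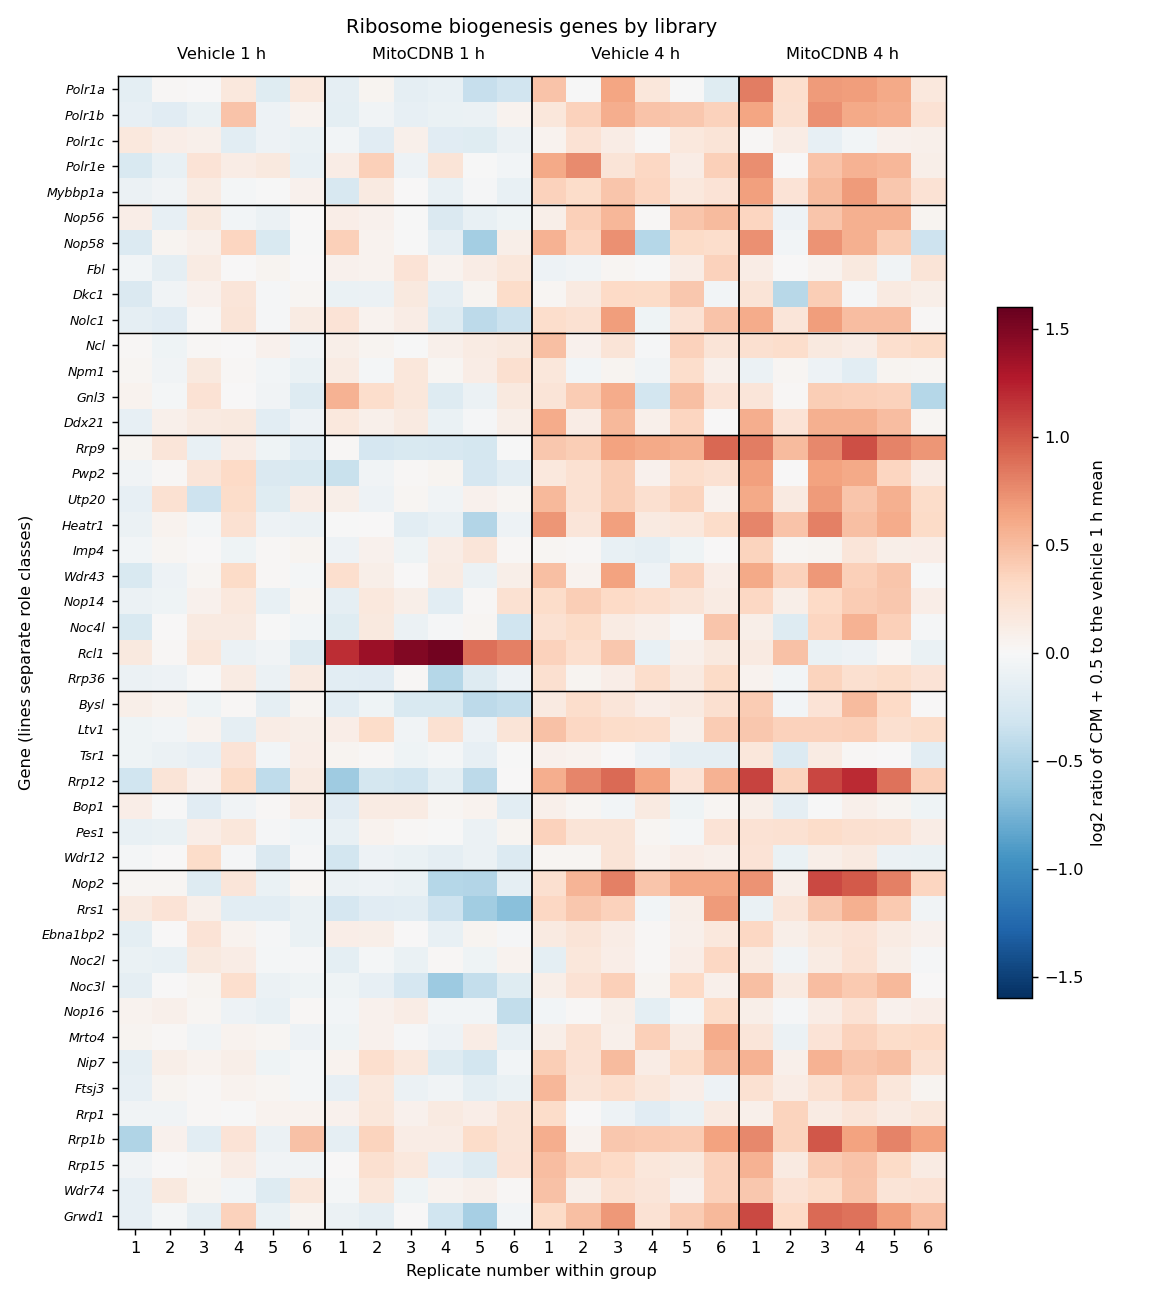
Log2 ratio of each gene (rows, ordered by role, with lines between role classes) in each of the 24 libraries (columns, replicate number within group) to the gene's mean in vehicle at 1 h, computed on CPM + 0.5. Red is above and blue below that mean. The Rcl1 row is dark red in the 6 MitoCDNB libraries of 1 h, while most other rows turn red in the 4 h columns.

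The comparison at 1 h asked which of these genes MitoCDNB changed soon after the injection. With edgeR's quasi-likelihood test and Benjamini-Hochberg adjustment over all genes tested, 1 of the 45 rose (Rcl1) and 0 fell, while 2.7% of all genes tested rose and 3.87% fell. DESeq2 called Rcl1 and 1 lower gene, Bysl, while the shares given here are those of edgeR. Over all genes tested, the count in both directions ran from 244 to 1123 under the other settings, DESeq2 among them. An unadjusted p under 0.05 was found for 6 of the 45 and for 2443 of the 13833 genes tested. The median log2 fold change of the 45 was -0.02, against 0.00 over all genes tested.

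Rcl1 codes for a protein related to RNA 3′-phosphate cyclases, which sits in the small-subunit processome with the GTPase Bms1 and takes part in early cleavage of the ribosomal RNA precursor. It lies on the plus strand of chromosome 19 (29101375 to 29143929, mm10). Its level was 95.1, 86.7, 97.6, 80.1, 82.6 and 73.9 CPM in the 6 vehicle libraries of 1 h, in the order of their replicate numbers. The 6 MitoCDNB libraries of 1 h held 196, 221, 241, 251, 158 and 150 CPM. Every MitoCDNB library was above every vehicle library, and MitoCDNB replicates 5 and 6 were the lowest of their group. The mean rose from 86.0 ± 9.04 to 203 ± 42.3 CPM (log2 fold change 1.24, SE 0.127, edgeR adjusted p = 6.08e-07).

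At 4 h Rcl1 was at 111, 103, 116, 78.9, 90.3 and 95.5 CPM in vehicle and at 95.0, 119, 79.2, 81.1, 86.7 and 79.8 CPM in MitoCDNB. The 2 groups overlapped throughout, and their difference did not pass the test (log2 -0.14, edgeR adjusted p = 0.682). The change of the MitoCDNB effect from 1 h to 4 h was itself tested as an interaction and passed (log2 -1.37, SE 0.178, edgeR adjusted p = 3.96e-05). In that test 1 of the 45 genes was called, Rcl1, beside 4.07% of all genes tested. An unadjusted p under 0.05 was found for 10 of the 45 and for 2343 of the 13833 genes tested. DESeq2 also called 1 of the 45. Over all genes tested, the interaction count ran from 150 to 745 under the other settings, DESeq2 among them.

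The 1 h rise of Rcl1 was as large within replicates 1 to 3 (log2 1.24, edgeR adjusted p = 2.01e-04) as within replicates 4 to 6 (log2 1.24, edgeR adjusted p = 9.82e-04), the sets that differed in their brain marker sums. Neutrophil markers also moved with MitoCDNB at 1 h: the summed level of those in the table (3 of 5 listed genes tested, 0 called, 0 at zero in all libraries) was 6.85 to 10.9 CPM in MitoCDNB and 1.72 to 5.71 CPM in vehicle. Cholangiocyte markers (5 of 6 tested, Spp1 called) summed to 21.5 to 54.2 CPM in MitoCDNB and 20.2 to 28.02 CPM in vehicle. Of 8 endothelial markers, Lyve1 was called higher (log2 1.02), and their sum was 231 to 278 CPM in MitoCDNB and 215 to 261 CPM in vehicle. The interaction test called the neutrophil markers S100a8 and S100a9 and the endothelial markers Clec4g and Kdr lower, and the hepatocyte marker Cps1 higher. The part of these cells in the Rcl1 result was not tested. In RNA of whole tissue, a change in the share of a cell type and a change of RNA per cell cannot be told apart.

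The 250 bases before the annotated start of Rcl1 are shown because Rcl1 was the 1 gene of the 45 called in a comparison of MitoCDNB with vehicle. The sequence is from RefSeq (GRCm38.p6), chr19:29101125-29101374, plus strand, 5′ to 3′. Capitals mark matches, on either strand, to the GC box GGGCGG and the CCAAT box CCAAT. No match to one overlaps a match to the other, but the GGGCGG matches at -25 and -21 overlap each other and form 1 run of capitals.
Rcl1: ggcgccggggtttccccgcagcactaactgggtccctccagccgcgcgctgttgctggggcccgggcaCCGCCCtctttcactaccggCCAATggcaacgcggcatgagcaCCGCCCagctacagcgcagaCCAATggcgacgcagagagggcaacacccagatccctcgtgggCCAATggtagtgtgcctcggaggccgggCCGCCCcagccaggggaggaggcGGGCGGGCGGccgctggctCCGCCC
The window holds 3 matches to CCAAT, at -162, -119 and -76 from the start, and 6 to GGGCGG. It holds no match to the E-box CACGTG, the cyclic AMP response element TGACGTCA, the ETS core CCGGAA or the NRF1 motif GCATGCGC, which says only that these letters are not in this window.

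Most of the other 44 genes had small differences at 1 h. The snoRNP genes ranged from a log2 fold change of -0.08 (Nolc1, a chaperone of snoRNPs) to 0.12 (Fbl, the methyltransferase fibrillarin). The PeBoW complex, a trio of 60S factors, ranged from -0.17 (Wdr12) to 0.00 (Bop1). The largest negative value was that of Rrs1, a factor that brings 5S ribosomal RNA into the 60S precursor. Rrs1 ran from 13.3 over a median of 14.96 to 17.53 CPM in vehicle and from 9.25 over 12.2 to 13.3 CPM in MitoCDNB at 1 h. These groups met without overlapping, but the difference did not pass the test over all genes (log2 -0.38, SE 0.130, edgeR adjusted p = 0.0885). Bysl, bystin, a factor of late 40S assembly, was close to the threshold too (16.01 ± 0.990 against 13.4 ± 1.22 CPM, log2 -0.26, edgeR adjusted p = 0.0598). Rrs1 and Bysl are described at 1 h because they passed under some other settings, seen after the values. Rrp1, also chosen after its values were seen, had groups without overlap at 1 h in the other direction. It ran from 45.2 over 47.3 to 49.28 CPM in vehicle and from 49.38 over 51.5 to 54.7 CPM in MitoCDNB. The difference did not pass (log2 0.13, SE 0.0664, edgeR adjusted p = 0.312).

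The comparison at 4 h asked whether MitoCDNB changed these genes later. edgeR called 0 of the 45, beside 0.824% of all genes tested, and DESeq2 called 0 of the 45. Over all genes tested, the count ran from 18 to 348 under the other settings, DESeq2 among them. An unadjusted p under 0.05 was found for 5 of the 45 and for 1981 of the 13833 genes tested. The count over all genes, 114, rested on single libraries: it was 412 without vehicle replicate 1, 65 without vehicle replicate 2, 73 without vehicle replicate 5, 63 without MitoCDNB replicate 3 and 72 without MitoCDNB replicate 4 or 5. Vehicle replicate 1 and MitoCDNB replicate 2 of 4 h also stood apart in the mTORC1 inhibitor gene Ddit4, at 21.2 and 34.4 CPM against 2.54 to 7.88 CPM in the other 10 libraries of 4 h. With both left out, 247 genes (1.78%) and 0 of the 45 were called. The median log2 fold change was 0.06, and values ran from -0.14 (Rcl1) to 0.35 (Polr1a). The 3 genes with the smallest p were Imp4, Polr1a and Grwd1. Among cell type markers at 4 h, 5 of 8 endothelial ones were called with MitoCDNB, Lyve1 higher and Clec4g, Kdr, Oit3 and Ehd3 lower. Cps1 of the hepatocyte list and Rrm2 of the cycling-cell list were called higher. The part of these markers in the result was not tested.

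Imp4, a U3 snoRNP protein of the processome, ran from 14.3 over 15.5 to 16.3 CPM in vehicle and from 16.2 over 17 to 20.4 CPM in MitoCDNB at 4 h. The groups overlapped slightly, with all 6 MitoCDNB libraries above the vehicle mean (log2 0.19, SE 0.0624, edgeR adjusted p = 0.135). Polr1a, the largest subunit of RNA polymerase I, ran from 13.9 over 17.1 to 25.1 CPM in vehicle and from 18.04 over 25 to 28.5 CPM in MitoCDNB. Of its 6 MitoCDNB libraries, 5 were above the vehicle mean (log2 0.35, SE 0.126, edgeR adjusted p = 0.175). Grwd1, a histone-binding WD-repeat protein of 60S assembly, was at 7.90 ± 0.972 CPM in vehicle and 9.81 ± 1.93 CPM in MitoCDNB (log2 0.31, SE 0.126, edgeR adjusted p = 0.239). None of these 3 differences passed the test.

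**Figure D2:**
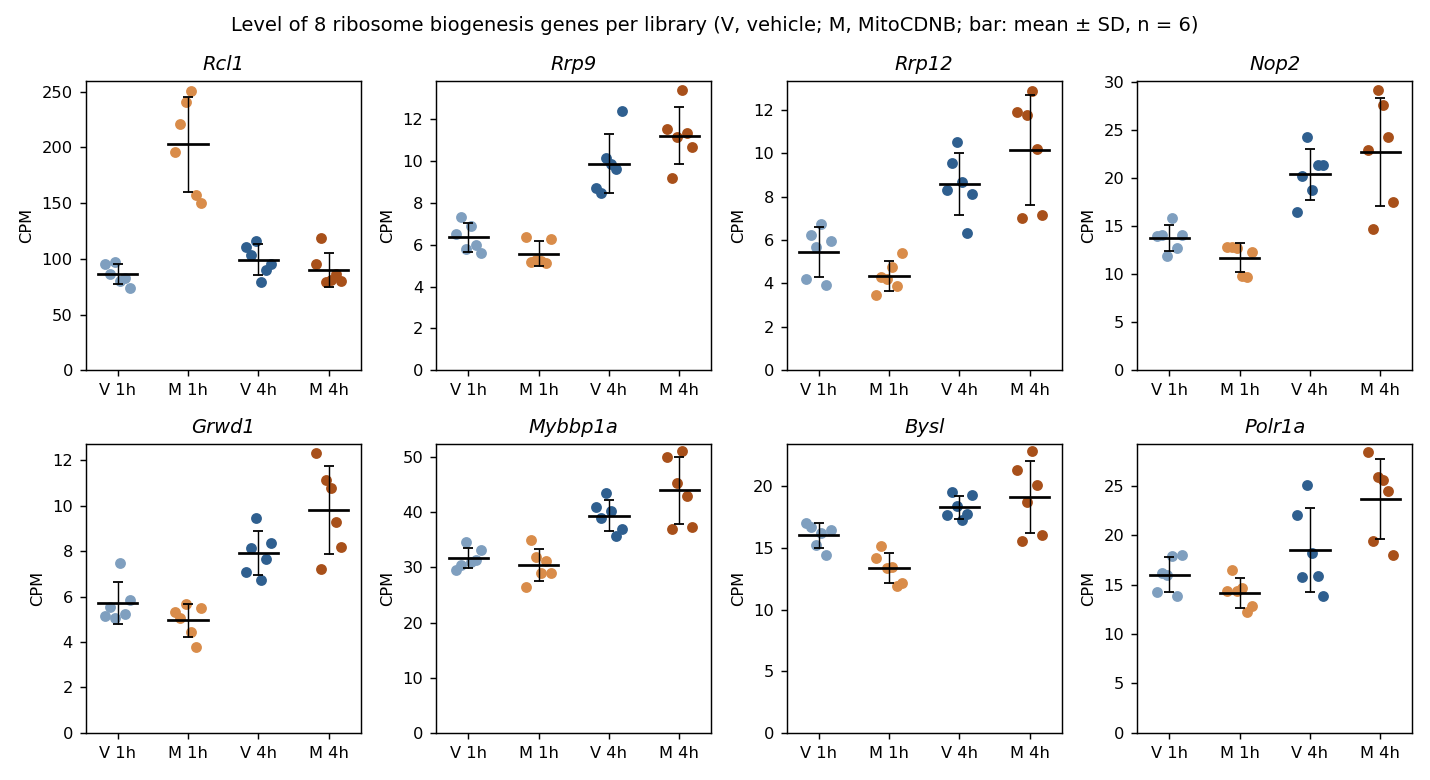
CPM (y axes, from 0) of 8 genes in each library of vehicle (V) and MitoCDNB (M) at 1 h and 4 h, with the mean and SD of 6 libraries. Rcl1 stands between 150 and 251 CPM with MitoCDNB at 1 h and at most at 119 CPM in all other libraries, whereas the other 7 genes have their higher means at 4 h.

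The comparison of 4 h with 1 h in vehicle mice showed how these genes stood at the 2 times without the compound. Of the 45, 12 rose and 0 fell, while 2.99% of all genes tested rose and 2.46% fell. The median log2 difference was 0.25, against -0.00 over all genes tested, and 43 of the 45 values were above zero. In 7 of the 45, all 6 libraries of 4 h were above all 6 of 1 h, which held for 1.3% of all genes tested. DESeq2 called 17. The 12 genes that edgeR called were spread over 5 of the 7 role classes. The snoRNP and PeBoW classes had 0 by edgeR, while DESeq2 also called the snoRNP gene Nop56.

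The same comparison in MitoCDNB mice gave 27 genes that rose and 1 that fell, Rcl1, beside 15.1% of all genes tested that rose and 13.4% that fell. The median log2 difference was 0.30, against -0.01 over all genes tested, and 41 of the 45 were above zero. In 14 of the 45, all 6 libraries of 4 h were above all 6 of 1 h, beside 7% of all genes tested. Markers of other cells also moved with time in MitoCDNB mice. The neutrophil sum was 6.85 to 10.9 CPM at 1 h and 0.501 to 1.73 CPM at 4 h (3 of 3 called lower), and that of brain markers 18.4 to 26.6 and 13.5 to 23.8 CPM. The endothelial sum was 231 to 278 and 212 to 246 CPM (4 of 8 called lower and 1 higher), and that of macrophage markers 213 to 256 and 146 to 225 CPM (1 of 7 called lower, all 7 below zero). The cycling-cell sum was 29.2 to 37.0 CPM at 1 h and 31.8 to 41.3 CPM at 4 h (11 tested, 2 called higher, Birc5 and Rrm2). Of the 9 brain markers tested, 4 were called lower. The cholangiocyte list had Sox9 called higher and Krt19 lower, and the hepatocyte list had Cps1 higher. The list for T, B and natural killer cells had Ptprc lower, and the stellate list had 0 calls. The part of all these markers in the result was not tested. The larger count in MitoCDNB mice does not show that these genes moved more there: the interaction tests that difference, and apart from Rcl1 it called none of the 45.

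**Figure D3:**
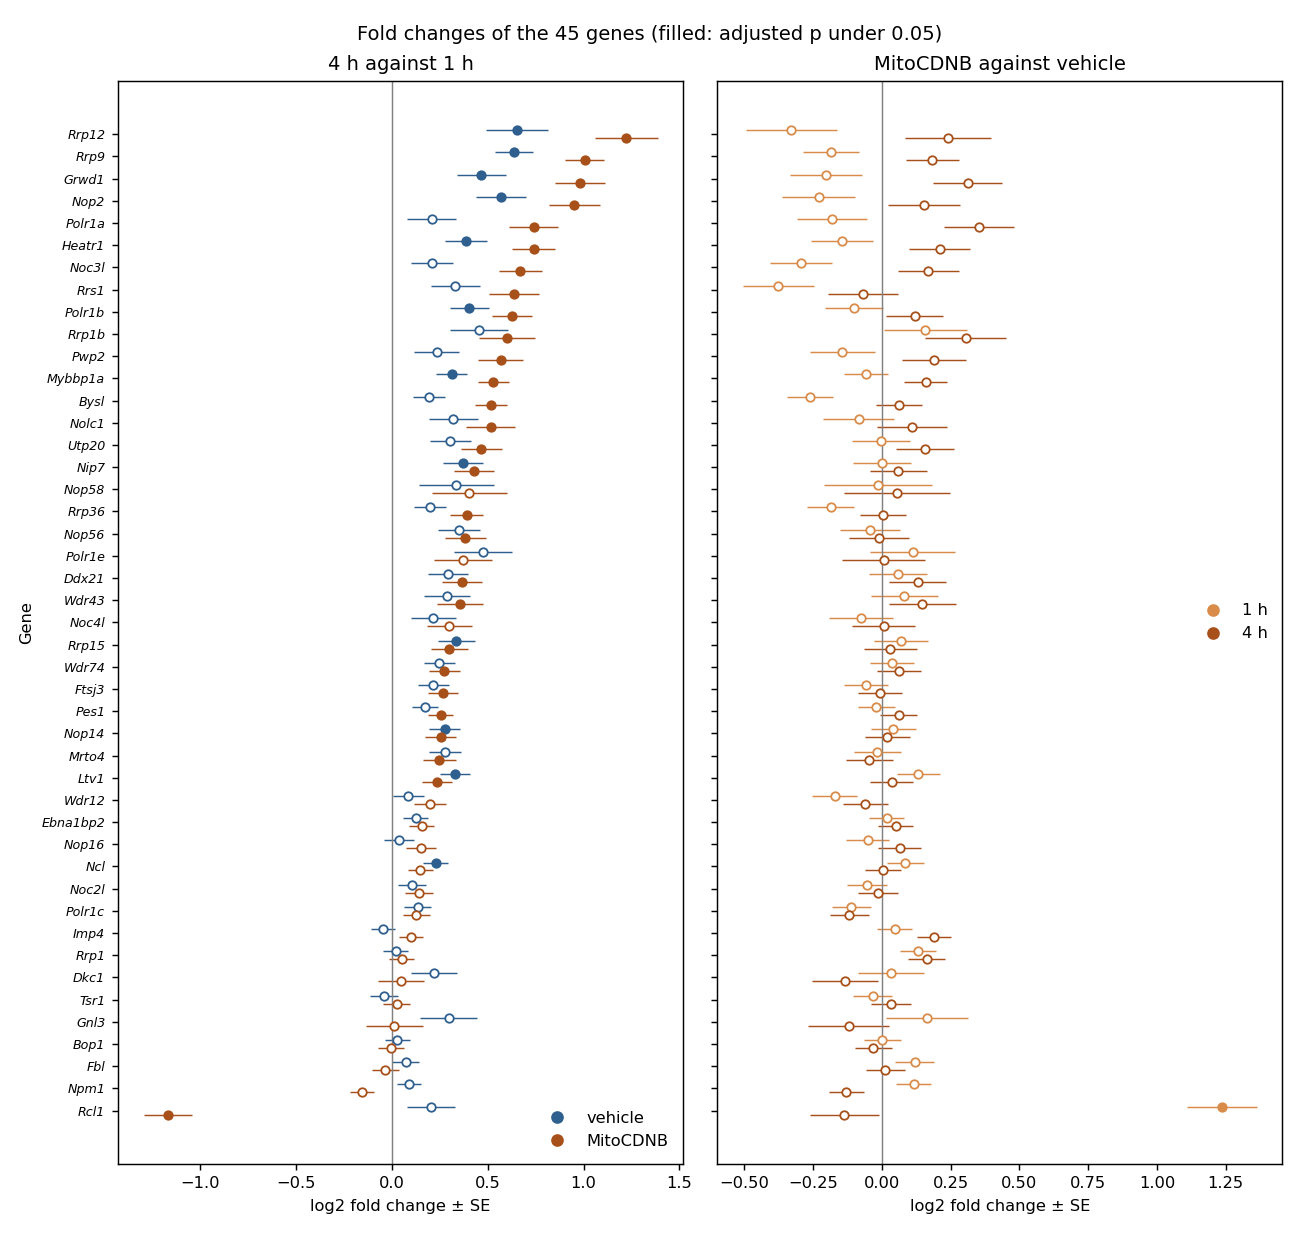
Log2 fold change ± SE of the 45 genes (rows, ordered by the 4 h against 1 h value in MitoCDNB). The left panel shows 4 h against 1 h in vehicle (blue) and MitoCDNB (brown), the right panel MitoCDNB against vehicle at 1 h (light) and 4 h (dark), and filled points have an adjusted p under 0.05. Left, 43 vehicle points and 41 MitoCDNB points lie right of zero; right, Rcl1 at 1 h is the only filled point.

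Among the 5 genes of RNA polymerase I and ribosomal DNA transcription, 2 rose in vehicle mice and 3 in MitoCDNB mice. Polr1b, the second largest subunit, ran from 8.51 over 9.07 to 13.5 CPM in vehicle at 1 h and from 11.1 over 13.0 to 14.8 CPM at 4 h. The groups overlapped only through vehicle replicate 4 of 1 h, and the rise was 0.40 on the log2 scale (SE 0.103, edgeR adjusted p = 0.0210). Mybbp1a, a nucleolar partner of the polymerase, ran from 29.6 over 31.2 to 34.6 CPM at 1 h and from 35.6 over 39.6 to 43.4 CPM at 4 h in vehicle, without overlap (log2 0.31, SE 0.0797, edgeR adjusted p = 0.0209). In MitoCDNB mice Mybbp1a rose from 30.4 ± 2.94 to 43.9 ± 6.10 CPM (log2 0.53, edgeR adjusted p = 2.34e-05) and Polr1b from 9.18 ± 0.507 to 14.2 ± 2.04 CPM (log2 0.62, edgeR adjusted p = 7.05e-05). Polr1a passed in MitoCDNB mice, where it rose from 14.1 ± 1.49 to 23.6 ± 4.05 CPM (log2 0.74, SE 0.128, edgeR adjusted p = 1.07e-04). In vehicle mice Polr1a was at 16.01 ± 1.75 and 18.5 ± 4.25 CPM and did not pass (log2 0.21, edgeR adjusted p = 0.396). Polr1c, a subunit shared with RNA polymerase III, had the smallest values of the class (log2 0.13 in each treatment).

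Of the 5 snoRNP genes, edgeR called 0 in vehicle mice and 2 in MitoCDNB mice, both higher at 4 h. Nop56, a core protein of the C/D box particles, had log2 differences of 0.35 in vehicle (edgeR adjusted p = 0.0568) and 0.38 in MitoCDNB (edgeR adjusted p = 0.00940). In vehicle Nop56 passed with DESeq2, and with edgeR when vehicle replicate 1 or 4 of 4 h was left out. Nolc1 had 0.32 and 0.51 (edgeR adjusted p = 0.154 and 0.00370). Fbl had 0.07 and -0.04.

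Of the 4 multifunctional nucleolar proteins, 1 passed in vehicle, Ncl, and 1 in MitoCDNB, the RNA helicase Ddx21. Ncl ran from 87.2 over 91.9 to 95.9 CPM in vehicle at 1 h and from 90.0 over 105 to 127 CPM at 4 h. The groups overlapped, with 5 of 6 libraries above the 1 h mean, and the rise was 0.23 on the log2 scale (SE 0.0657, edgeR adjusted p = 0.0402). Ddx21 rose from 30.3 ± 2.25 to 39.0 ± 5.95 CPM in MitoCDNB mice (log2 0.36, edgeR adjusted p = 0.0110). Npm1 was the other abundant member, with log2 differences of 0.09 in vehicle and -0.16 in MitoCDNB that did not pass.

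The small-subunit processome had 10 members here, of which 3 rose in vehicle mice. In MitoCDNB mice 7 rose and Rcl1 fell. Rrp9, a U3 snoRNP protein, had the smallest p of the 45 in both. In vehicle it ran from 5.59 over 6.25 to 7.33 CPM at 1 h and from 8.47 over 9.75 to 12.4 CPM at 4 h. All 4 h libraries were above all 1 h libraries, and the rise was 1.56-fold (log2 0.64, SE 0.0999, edgeR adjusted p = 5.51e-04). In MitoCDNB Rrp9 ran from 5.13 over 5.26 to 6.40 CPM at 1 h and from 9.21 over 11.3 to 13.4 CPM at 4 h, again without overlap (log2 1.00, SE 0.101, edgeR adjusted p = 9.43e-08).

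Heatr1, a large scaffold of the processome needed for polymerase I transcription, ran from 11.6 over 11.9 to 14.8 CPM at 1 h and from 13.8 over 14.8 to 20.6 CPM at 4 h in vehicle. These groups overlapped (log2 0.39, SE 0.111, edgeR adjusted p = 0.0403), whereas in MitoCDNB they did not, with 11.3 ± 1.33 CPM at 1 h and 18.9 ± 2.65 CPM at 4 h (log2 0.74, SE 0.112, edgeR adjusted p = 2.45e-05). Nop14, a processome assembly factor, rose in vehicle from 10.3 ± 0.853 to 12.5 ± 0.813 CPM with overlap (log2 0.28, SE 0.0814, edgeR adjusted p = 0.0447). In MitoCDNB mice Pwp2, Utp20, Wdr43 and Rrp36 rose as well, with log2 values between 0.35 and 0.57. Rcl1 ran the other way, from 203 ± 42.3 to 90.1 ± 15.4 CPM (log2 -1.17, SE 0.127, edgeR adjusted p = 3.09e-07), with all 4 h libraries below all 1 h libraries. In vehicle mice Rcl1 was at 86.0 ± 9.04 and 99.1 ± 13.7 CPM (log2 0.20, edgeR adjusted p = 0.393).

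Late 40S assembly had 4 members, of which 2 rose in vehicle and 3 in MitoCDNB. Rrp12, an export factor of the 40S precursor, had the largest value of the 45 in both. In vehicle Rrp12 ran from 3.92 over 5.82 to 6.75 CPM at 1 h and from 6.33 over 8.47 to 10.5 CPM at 4 h, with a small overlap (log2 0.65, SE 0.161, edgeR adjusted p = 0.0169). In MitoCDNB it ran from 3.46 over 4.25 to 5.41 CPM and from 6.996 over 10.97 to 12.9 CPM, without overlap and 2.33-fold higher at 4 h (log2 1.22, SE 0.164, edgeR adjusted p = 5.04e-06). Ltv1, which keeps the 40S head immature, ran in vehicle from 7.37 over 8.20 to 8.93 CPM at 1 h and from 8.66 over 10.3 to 11.6 CPM at 4 h (log2 0.33, SE 0.0785, edgeR adjusted p = 0.0128). The lowest 4 h library of Ltv1 lay inside the 1 h range. Bysl rose in MitoCDNB from 13.4 ± 1.22 to 19.1 ± 2.92 CPM without overlap (log2 0.52, SE 0.0831, edgeR adjusted p = 5.06e-05). Tsr1, a GTPase-like factor of the last steps, had group means between 45.8 and 47.1 CPM, which differed by less than the spread among mice.

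The 3 PeBoW genes held 0 calls in vehicle and 1 in MitoCDNB, Pes1 (log2 0.25, edgeR adjusted p = 0.00521). Bop1 had log2 values of 0.03 and -0.00 and Wdr12 0.09 and 0.20.

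The other 14 factors of 60S assembly had 4 members that rose in vehicle mice and 10 in MitoCDNB mice. Nop2, a cytosine methyltransferase of 28S ribosomal RNA, ran in vehicle from 11.8 over 14.03 to 15.8 CPM at 1 h and from 16.4 over 20.8 to 24.2 CPM at 4 h, without overlap (log2 0.57, SE 0.131, edgeR adjusted p = 0.0109). In MitoCDNB Nop2 ran from 9.75 over 12.5 to 12.9 CPM and from 14.7 over 23.6 to 29.1 CPM, also without overlap (log2 0.95, SE 0.133, edgeR adjusted p = 9.04e-06). Grwd1 rose from 5.72 ± 0.908 to 7.90 ± 0.972 CPM in vehicle, where vehicle replicate 4 of 1 h, at 7.47 CPM, overlapped the 4 h group (log2 0.47, SE 0.128, edgeR adjusted p = 0.0328). In MitoCDNB it rose from 3.76 over 5.19 to 5.68 CPM at 1 h to 7.22 over 10.03 to 12.3 CPM at 4 h (log2 0.98, SE 0.129, edgeR adjusted p = 3.91e-06).

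Nip7, an RNA-binding factor of 60S assembly, and Rrp15, a nucleolar 60S protein, made smaller steps. Nip7 ran from 5.93 over 6.68 to 7.13 CPM at 1 h and from 7.22 over 8.55 to 9.63 CPM at 4 h in vehicle (log2 0.37, SE 0.105, edgeR adjusted p = 0.0377). Rrp15 ran from 5.65 over 5.79 to 6.44 CPM and from 6.59 over 7.55 to 8.53 CPM (log2 0.34, SE 0.0966, edgeR adjusted p = 0.0402). Neither pair of groups overlapped. In MitoCDNB, Noc3l, a nuclear export factor of the 60S precursor, rose from 4.34 ± 0.595 to 6.91 ± 1.04 CPM (log2 0.67, SE 0.112, edgeR adjusted p = 7.38e-05). Rrs1 rose from 11.7 ± 1.67 to 18.1 ± 3.50 CPM (log2 0.64, SE 0.129, edgeR adjusted p = 6.06e-04). Both of these were without overlap in MitoCDNB, and in vehicle their log2 values of 0.21 and 0.33 did not pass. Rrp1, Noc2l, Nop16 and Ebna1bp2 had 0 calls at any comparison.

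The vehicle calls were close to the threshold for many genes. Rrp9 kept its call under every setting tried, and Rrp9, Nop2, Rrp12 and Ltv1 kept theirs when any 1 library was left out. The count was 5 without vehicle replicate 1 or 5 of 1 h, 6 without replicate 2 or 3 and 7 without replicate 6, and it was 5 without vehicle replicate 3 of 4 h. Against the 1 h replicates 1 to 3 alone 2 were called, and against replicates 4 to 6 alone 1. The median over the 45 moved less, to 0.26 and 0.24. The count over all genes tested also moved. It was 413 higher and 340 lower in the reported fit. Both directions together, it ran from 177 to 1093 under the other settings and from 480 to 749 over single omissions. In vehicle mice the brain markers summed to 18.3 to 29.0 CPM at 1 h and 14.7 to 19.8 CPM at 4 h, and their part in the result was not tested beyond these values.

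**Figure D4:**
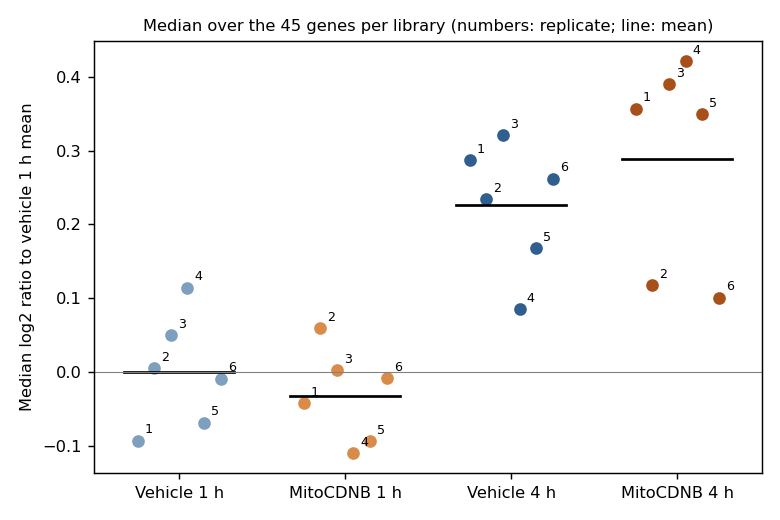
Median over the 45 genes of the log2 ratio to the gene's vehicle 1 h mean (y axis), 1 point per library with its replicate number, and the group mean as a line. Libraries of 1 h lie between -0.11 and 0.11 and those of 4 h between 0.09 and 0.42.

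Per library, the median log2 ratio of the 45 genes to their vehicle 1 h means was also higher at 4 h. It ran from -0.09 to 0.11 in vehicle and from -0.11 to 0.06 in MitoCDNB at 1 h. At 4 h it ran from 0.09 to 0.32 in vehicle and from 0.10 to 0.42 in MitoCDNB, and vehicle replicate 4 and MitoCDNB replicate 6 of 4 h lay below the highest library of 1 h, vehicle replicate 4 (0.11). MitoCDNB replicates 2 and 6 of 4 h, at 0.12 and 0.10, stood below the other 4 (0.35 to 0.42), and they held more brain marker RNA (23.8 and 20.5 CPM) than those 4 (13.5 to 16.4 CPM). The vehicle libraries of 4 h did not show this: replicate 1 had their highest brain sum (19.8 CPM) and a median of 0.29. Vehicle replicate 4 of 4 h, the lowest vehicle library of its time, was the library with 494 CPM of macrophage markers and also had the lowest hepatocyte sum, 56310 CPM. The part of these differences in the result was not tested. The summed level of the 45 genes was 858 ± 29.1 CPM in vehicle and 972 ± 51.1 CPM in MitoCDNB at 1 h and 992 ± 65.8 and 1019 ± 65.6 CPM at 4 h. The means of Rcl1 at 1 h lay further apart than these 1 h sums.

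Promoters of Rrp9 and Nop2 are shown because these genes had the smallest p for time in vehicle mice and rose in both treatments. RefSeq (GRCm38.p6) held 45 promoter windows for 40 of the 45 genes, from 250 bases before to 50 after the start. Fbl, Npm1, Rrp12, Bop1 and Rrs1 had no entry. The 250 bases before the start are printed 5′ to 3′ for Rrp9, chr9:106477059-106477308, and Nop2, chr6:125131633-125131882, both on the plus strand. Capitals mark matches on either strand to CACGTG, the E-box that MYC and MAX can bind, to the ETS core CCGGAA, and to CCAAT and GGGCGG.
Rrp9: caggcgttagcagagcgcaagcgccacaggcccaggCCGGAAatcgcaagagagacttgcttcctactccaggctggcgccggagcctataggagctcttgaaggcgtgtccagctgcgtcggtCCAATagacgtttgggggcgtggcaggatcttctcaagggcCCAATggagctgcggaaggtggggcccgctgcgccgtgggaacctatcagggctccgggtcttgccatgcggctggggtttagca
Nop2: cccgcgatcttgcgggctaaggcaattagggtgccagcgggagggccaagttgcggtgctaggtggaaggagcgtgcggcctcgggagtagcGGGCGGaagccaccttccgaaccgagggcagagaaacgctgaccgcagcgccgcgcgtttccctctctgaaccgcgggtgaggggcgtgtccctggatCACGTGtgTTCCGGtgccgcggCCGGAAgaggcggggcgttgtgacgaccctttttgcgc
The Nop2 window has an E-box at -60 with matches to CCGGAA at -52 and -38, and the Rrp9 window has CCGGAA at -214 and CCAAT at -126 and -85 but no E-box. Over the 45 windows, 20% held CACGTG, against 9.68% of the windows of the genes tested, and 48.9% held CCGGAA, against 25.5%. The share with GGGCGG was 75.6% against 59.7% and that with CCAAT 26.7% against 37.5%. Matches to TGACGTCA and GCATGCGC were found in 2.22% of the windows each, against 2.88% and 4.86%. The 9 genes with an E-box were Mybbp1a, Utp20, Imp4, Wdr43, Ltv1, Tsr1, Pes1, Nop2 and Grwd1. Of these 9, 4 rose with time in vehicle mice (Mybbp1a, Ltv1, Nop2, Grwd1) and 5 did not pass (Utp20, Imp4, Wdr43, Tsr1, Pes1), beside 12 of the 45 that rose. In MitoCDNB mice Imp4 and Tsr1 did not pass and the others of the 9 rose, beside 27 of the 45. Of all genes tested, 2.99% rose in vehicle mice and 15.1% in MitoCDNB mice. A match is a string of letters, not a shown binding site.

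The other genes of the pathway came to 117 that were tested. At 1 h 2 rose with MitoCDNB and 3 fell (4.27% called), beside 2.7% of all genes tested that rose and 3.87% that fell. At 4 h edgeR called 0, beside 0.824% of all genes tested. An unadjusted p under 0.05 was found at 4 h for 11 of the 117 and for 1981 of the 13833 genes tested. The interaction called 5 (4.27%), beside 4.07% of all genes tested. The counts called for MitoCDNB were thus close to or below the shares over all genes tested. In vehicle mice 16 rose from 1 h to 4 h and 0 fell (13.7% called), with a median log2 difference of 0.15. Over all genes tested 2.99% rose and 2.46% fell. In MitoCDNB mice 52 rose and 2 fell (46.2% called), Polr1d and Zfp622, with a median of 0.23. Over all genes tested 15.1% rose there and 13.4% fell.

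The 2 pathway genes higher with MitoCDNB at 1 h were Zfp622 and Mphosph6. Zfp622, a cytoplasmic factor of late 60S maturation, ran from 20.3 over 23.8 to 27.2 CPM in vehicle and from 32.1 over 35.9 to 39.5 CPM in MitoCDNB (log2 0.59, SE 0.0842, edgeR adjusted p = 5.07e-05). Mphosph6, a partner of the RNA exosome, was low, at 1.15 ± 0.253 and 2.05 ± 0.172 CPM (log2 0.83, SE 0.152, edgeR adjusted p = 8.12e-04). Neither pair of groups overlapped. The effect of MitoCDNB on both was smaller at 4 h by the interaction test (edgeR adjusted p = 0.0442 and 0.0164), as it was for Rcl1. The 2 genes differed in which group moved with time. Zfp622, like Rcl1, was called lower at 4 h than at 1 h in MitoCDNB mice (log2 -0.64). Mphosph6 was instead called higher at 4 h in vehicle mice (log2 0.64) and was not called with time in MitoCDNB mice (log2 -0.23).

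The 3 pathway genes lower with MitoCDNB at 1 h also had groups that did not overlap. Ttf1, the factor that ends polymerase I transcription, ran from 7.21 over 7.68 to 9.46 CPM in vehicle and from 4.42 over 5.21 to 6.16 CPM in MitoCDNB (log2 -0.60, SE 0.107, edgeR adjusted p = 6.20e-04). Nol9, a polynucleotide kinase that trims a spacer of the precursor, fell from 12.8 ± 1.18 to 9.35 ± 1.12 CPM (log2 -0.45, edgeR adjusted p = 0.00754). The RNA helicase Ddx55 fell from 5.48 ± 0.410 to 3.73 ± 0.456 CPM (log2 -0.55, edgeR adjusted p = 0.0128). At 4 h none of the 3 passed, and the interaction passed for each (edgeR adjusted p = 0.0284 for Ttf1, 0.0260 for Nol9 and 0.0101 for Ddx55).

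Of 24 regulators from the MYC network and the mTORC1 pathway, 2 rose and 2 fell with MitoCDNB at 1 h (16.7% called). Over all genes tested 2.7% rose and 3.87% fell. At 4 h 0 of the 24 were called, beside 0.824% of all genes tested. Myc itself varied widely among mice of a group. It ran from 1.35 over 2.09 to 14.8 CPM in vehicle and from 1.63 over 5.03 to 16.01 CPM in MitoCDNB at 1 h. At 4 h it ran from 1.72 over 6.69 to 17.6 CPM in vehicle and from 2.28 over 4.14 to 7.55 CPM in MitoCDNB. No Myc comparison passed the test (adjusted p from 0.467 to 0.778 in the 4 comparisons of 2 groups, edgeR). Mnt, a MAX partner that represses MYC targets, rose with MitoCDNB at 1 h from 5.88 ± 0.818 to 11.4 ± 1.96 CPM (log2 0.95, edgeR adjusted p = 3.70e-06). Ddit4, an inhibitor of mTORC1, rose from 7.55 ± 1.72 to 49.2 ± 7.10 CPM (edgeR adjusted p = 0.00337). Max fell from 16.6 ± 1.32 to 13.4 ± 0.972 CPM (log2 -0.31, edgeR adjusted p = 0.00990), and Mycn fell from 0.621 ± 0.328 to 0.159 ± 0.114 CPM (edgeR adjusted p = 0.0154). Mycn was low and its groups overlapped. Vehicle of 1 h held 0.37, 0.24 and 0.38 CPM of Mycn in replicates 1 to 3 and 0.83, 0.88 and 1.03 CPM in replicates 4 to 6. MitoCDNB of 1 h held 0.11, 0.22, 0.37, 0.11, 0.067 and 0.088 CPM. Replicates 4 to 6 of 1 h also had the higher brain marker sums, whose part was not tested.

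In vehicle mice Mnt was the 1 regulator called with time (4.17% of the 24), beside 2.99% of all genes tested that rose and 2.46% that fell. Mnt was higher at 4 h (10.9 ± 1.12 CPM, log2 0.89, edgeR adjusted p = 1.51e-04). In MitoCDNB mice 5 regulators rose and 5 fell with time (41.7% called), beside 15.1% of all genes tested that rose and 13.4% that fell. The polymerase I factors Rrn3, which brings the polymerase to its promoter, and Ubtf, which binds ribosomal DNA, passed in none of the comparisons. Rrn3 was at 11.51 ± 1.14 and 17.04 ± 4.91 CPM in vehicle at 1 h and 4 h (log2 0.57, edgeR adjusted p = 0.0898) and at 12.6 ± 3.11 and 14.1 ± 3.71 CPM in MitoCDNB. Ubtf was at 47.5 ± 3.91 and 50 ± 2.21 CPM in vehicle and at 44.5 ± 2.63 and 48.1 ± 3.52 CPM in MitoCDNB. No value here measured ribosomal RNA, protein or the number of ribosomes.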

How the data were processed

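RNA sequencing of 24 mouse livers was used, 6 in each of 4 groups by treatment and time. The authors deposited a table of read counts per gene, not normalized. The submitters' processing notes name HISAT2, Trim Galore, DESeq2, CASAVA 1.8.4 and the build mm10. For the counting tool, its annotation and its treatment of strand and shared reads, the entry is: not given in the sources used here. Counts were tested with edgeR 4.0.16 (R 4.3.3, limma 3.58.1): trimmed-mean scaling, a filter on low counts (minimum count 10, minimum total 15, leaving out 0.0306% of counts), 1 coefficient per group over all 24 libraries and the robust quasi-likelihood F-test, with Benjamini-Hochberg adjustment over 13833 genes and calls at an adjusted p under 0.05. A fold change is on the log2 scale. A pseudocount of 0.5 CPM was used for ratios per library. Scripts were tested on simulated data. Within each group no library was a copy of another, and libraries of different groups were not compared in this way. Each p-value weighs a difference between groups against the spread between mice of a group. In the comparisons of times, that spread does not cover library number or hour of day.

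The members and lists were chosen with earlier results of these data known. Named genes were, per comparison, the called members (at most 12 by p), or the 3 with the smallest p where none was called. Other pathway genes were named where called (at most 4 by p) and Myc, Rrn3 and Ubtf always, and any other gene was chosen after its values were seen. Of the 5 pathway genes called at 1 h, the fifth is added so that all are named. Alternatives were DESeq2 1.42.0, relative log expression size factors, no filter, the compared groups alone, a replicate block, a term for or a split by 1 h replicates 4 to 6, and leaving out libraries. Promoter windows came from RefSeq (GRCm38.p6).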

Additional observations from a re-analysis of the deposited data

Results flagged for a closer look

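Among 76 groups of 6 libraries tested for a value far from the others, 2 held one, where chance gives about 1 in 20, or 3.8. Grwd1 was at 7.47 CPM in vehicle replicate 4 of 1 h, and the next highest library of that group was at 5.86 CPM. Polr1b was at 13.5 CPM in the same library, and the next highest was at 10.2 CPM. The effect of MitoCDNB on Rcl1 differed between 1 h and 4 h by the interaction test (log2 -1.37, edgeR adjusted p = 3.96e-05).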

How the results depend on the processing

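For MitoCDNB against vehicle at 1 h, 1 gene was called in the reported fit, 2 with DESeq2, 3 with the compared groups alone, 2 with vehicle 1 and MitoCDNB 2 of 4 h both left out and 2 with a term for 1 h replicates 4 to 6. The added genes were Bysl and Rrs1, both lower. Leaving out 1 library gave 1 to 2, with 2 without vehicle replicate 5 or MitoCDNB replicate 2 of 1 h. At 4 h the count of 0 became 1 (Rrp1) without vehicle replicate 1, so single omissions gave 0 to 1. For the interaction, the count of 1 became 2 with the pair of 4 h libraries left out (Polr1a added) and 1 to 3 over single omissions, with 3 without MitoCDNB replicate 2 or 6 of 4 h and 2 without vehicle replicate 3. For time in vehicle mice the count of 12 became 5 with the term for 1 h replicates 4 to 6, 2 with 1 h replicates 1 to 3 only, 1 with replicates 4 to 6 only, and 5 to 12 over single omissions. For time in MitoCDNB mice the count of 28 became 16 with 1 h replicates 1 to 3 only and 25 to 32 over single omissions. The counts over all genes tested moved as well. Under the other settings they ran from 244 to 1123 at 1 h, 18 to 348 at 4 h and 150 to 745 for the interaction. For time they ran from 177 to 1093 in vehicle mice and from 2395 to 4156 in MitoCDNB mice. Single omissions gave 720 to 838, 63 to 412, 439 to 696, 480 to 749 and 3457 to 3901, in the same order. The cause of these moves was not tested. For the named genes, no direction reversed: under the other settings 189 values kept their side of the threshold and 41 lost their call, and under single omissions 303 and 57. With the replicate number as a block, the counts were 1 at 1 h, 0 at 4 h and 2 for the interaction (Polr1a added), and Rcl1 stayed at 1.22 at 1 h. Same-numbered libraries had correlations from -0.233 to 0.317, and 3 of 12 libraries correlated best with their own number, so the numbers were not taken to pair mice. The block was not run for time, since replicate numbers are nested in time, and the interaction cannot be fitted on 2 groups alone.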

Other observations

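The genes around Rcl1, chosen after its values were seen, were not called with it. Within 300 kb of Rcl1 (mm10), 6 other genes were tested: 4430402I18Rik, Cdc37l1, Ak3, Jak2, Plgrkt and Cd274. At 1 h their log2 fold changes were 0.26, 0.14, -0.06, 0.16, -0.07 and 0.62, and edgeR called none of them (adjusted p from 0.239 to 0.919). At 4 h the smallest adjusted p was that of Jak2 (log2 -0.31, edgeR adjusted p = 0.0899).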
